A study of Mus musculus with 8 samples.

Results

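Interferon-stimulated effector genes encode the proteins that cells make after an interferon signal. A set of 44 such genes was followed here through sorted mouse prostate epithelium. The genes were chosen by symbol: a deposited row belongs to the set where its Ensembl identifier maps to a listed symbol. All 44 were found among 55335 gene identifiers. The filter on low values, at least 1 FPKM (fragments mapped to a gene, scaled to transcript length and library size) in at least 2 libraries, left 14000 genes, and 44 of the 44 listed genes passed it. They fall into 4 families named for their members, Ifit (4 genes), Oas (6), Gbp with the related IRG GTPases (6) and Parp with Dtx3l (4). The other groups are the ISG15 system (4), Mx, membrane and nucleotide effectors (5), RNA-binding effectors (3), and Ifi genes and others (12).

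The study sequenced total RNA from epithelium of 4 groups of mice, with 2 libraries per group, lettered A and B. PPK ADT mice carried the prostate genotype PP together with Kmt2cPC-/-, were labelled ADT and were 6.5 months old. PP ADT mice were of genotype PP alone, labelled ADT, and 6.5 months old. PPK sham and PP sham mice had these same genotypes, were labelled sham and were 3.5 months old. All 4 groups thus share genotype PP, and none of them is a wild type. Kmt2c encodes a histone H3 lysine 4 methyltransferase. ADT commonly stands for androgen deprivation therapy, by a procedure that the labels leave unnamed. ADT and age change together in every comparison of ADT with sham mice and cannot be told apart. According to the series' design text the cells were sorted as EpCAM+, CD24a+ and CD49f-low. The labels name neither the driver of the deletions nor whether A and B came from separate animals, so p-values measure the spread between these libraries, which may be technical. Organoid experiments of the series are not analysed here.

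Type I and type III interferons bind their receptors and signal through JAK kinases to a DNA element called the ISRE in the promoters of their target genes. Type II interferon signals mainly to another element, called GAS. The effector proteins bind foreign RNA, degrade RNA, block entry or release of viruses, or attach the ubiquitin-like protein ISG15 to other proteins. Epithelial cells express receptors for all 3 types of interferon, and many effector genes are also expressed at a low level without infection.

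Promoter letters are shown first, because the ISRE is the shared element through which most of these genes are known to respond. RefSeq promoter entries (GRCm38.p6, 300 bases, 250 before and 50 from the annotated start onward) were matched by symbol for 33 of the 44 genes. An ISRE-type match, the half-site GAAA repeated after any 2 bases and read on either strand, was found in 16 of the 33 promoters (48.5%, exact 95% interval 30.8 to 66.5%). Of all 27025 genes with an entry, 1079 held one (3.99%). The longer form, with a C after the second half-site, was in 13 of 33 (39.4%), against 255 of 27025 (0.944%). A GAS-type match, TTC and GAA with any 3 bases between them, was in 8 of 33 (24.2%), against 2582 of 27025 (9.55%). Of the 9 GAS-type matches in the set, 1 overlapped an ISRE-type match. The families differed in these letters: all 5 Gbp and IRG promoters with an entry held an ISRE-type match, as did 3 of 4 Ifit and 3 of 5 Oas promoters, but 0 of 2 in the Parp group and 1 of 9 among the Ifi genes and others. These counts describe letters and show no binding.

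The following stretches upstream of the start carry ISRE-type matches, written in capitals, all 5′ to 3′ on the strand of the gene. They stop where either RefSeq or the GENCODE gene begins. Isg15 is at chr4:156200819-156200978 on the minus strand and holds 3 overlapping matches. Ifit3 is at chr19:34583369-34583528 and Ifit1 at chr19:34640711-34640870, both on the plus strand with 2 matches each, here in the reverse orientation. Gbp3 is at chr3:142559866-142560025 on the plus strand, and Oas1a at chr5:120907526-120907685 on the minus strand, each with 2 overlapping matches.
Isg15: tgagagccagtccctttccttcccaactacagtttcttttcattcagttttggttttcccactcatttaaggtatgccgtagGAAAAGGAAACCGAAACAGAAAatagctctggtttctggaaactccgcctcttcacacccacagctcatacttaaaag
Ifit3: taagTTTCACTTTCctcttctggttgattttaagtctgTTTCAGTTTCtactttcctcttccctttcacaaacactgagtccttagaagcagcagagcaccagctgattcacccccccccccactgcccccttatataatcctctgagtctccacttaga
Ifit1: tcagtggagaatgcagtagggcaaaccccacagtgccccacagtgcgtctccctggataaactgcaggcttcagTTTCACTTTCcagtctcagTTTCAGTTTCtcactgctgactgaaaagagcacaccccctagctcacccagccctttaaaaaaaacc
Gbp3: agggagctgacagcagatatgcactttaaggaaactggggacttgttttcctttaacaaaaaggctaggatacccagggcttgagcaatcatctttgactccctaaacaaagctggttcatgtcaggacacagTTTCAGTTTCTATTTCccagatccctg
Oas1a: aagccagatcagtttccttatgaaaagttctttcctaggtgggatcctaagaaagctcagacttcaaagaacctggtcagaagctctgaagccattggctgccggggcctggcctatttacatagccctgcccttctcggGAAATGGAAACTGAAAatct

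The Gbp2 match lies 59 bases before its RefSeq start, past the start that GENCODE gives, and is not printed. A second RefSeq entry of Gbp3 holds no match. For contrast, the same window of Oasl1 (chr5:114923080-114923239, plus strand), Oasl2 (chr5:114896774-114896933, plus strand) and Parp12 (chr6:39118350-39118509, minus strand) holds no ISRE-type match, so no letters are in capitals.
Oasl1: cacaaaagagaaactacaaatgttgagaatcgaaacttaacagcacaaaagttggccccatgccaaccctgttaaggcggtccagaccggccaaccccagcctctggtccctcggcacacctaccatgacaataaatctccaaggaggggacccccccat
Oasl2: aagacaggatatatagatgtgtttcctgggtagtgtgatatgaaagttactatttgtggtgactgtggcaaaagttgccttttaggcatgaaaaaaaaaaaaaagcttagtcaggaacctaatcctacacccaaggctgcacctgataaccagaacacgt
Parp12: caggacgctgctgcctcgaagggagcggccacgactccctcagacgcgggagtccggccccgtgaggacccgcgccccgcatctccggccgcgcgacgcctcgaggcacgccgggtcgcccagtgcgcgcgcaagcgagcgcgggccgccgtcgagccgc

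**Figure D1:**
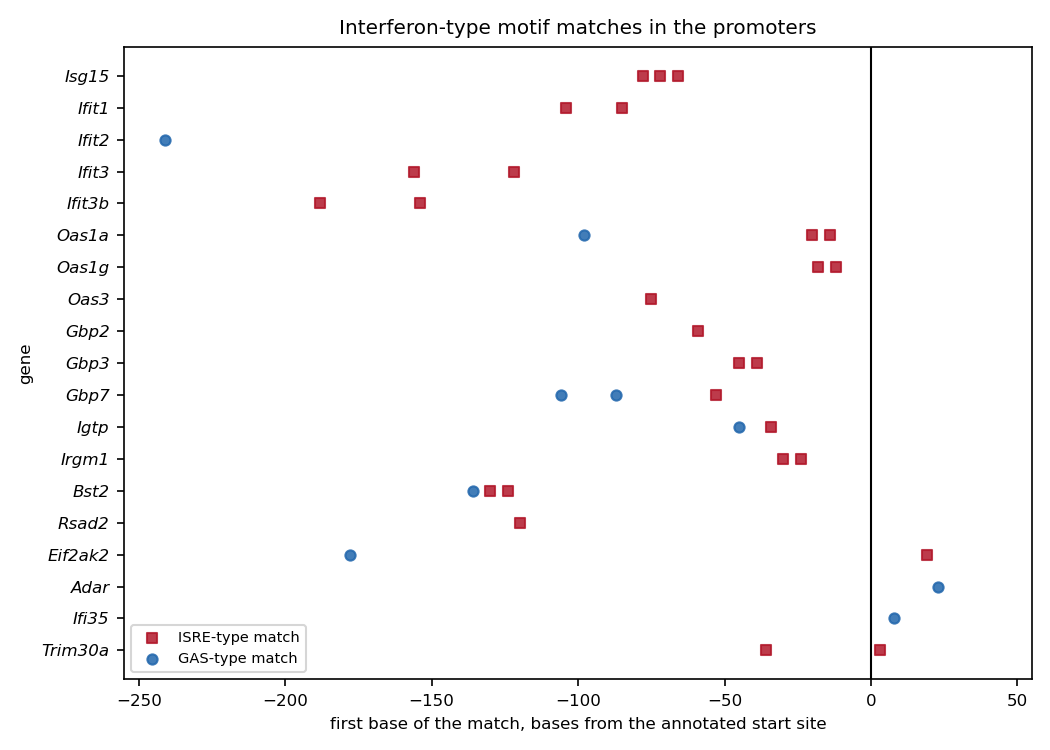
Position of each ISRE-type (red squares) and GAS-type (blue circles) match in the promoters that hold one, with the first base of the match on the x axis in bases from the annotated RefSeq start. The match nearest the start had a median position of -56 over the 16 genes with an ISRE-type match.

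The libraries summed to between 284015 and 333977 FPKM, and the files hold no read counts, so the depth behind a value is unknown. In Kmt2c, the deleted gene, PPK ADT libraries held 6.60 and 6.36 FPKM against 10.3 and 9.33 in PP ADT, and PPK sham libraries 8.67 and 8.15 against 13.2 and 13.9 in PP sham. Each pair was lower in PPK (log2 fold changes -0.53 and -0.63, limma adjusted p = 0.00054 and 0.000795), but a gene-level FPKM does not show which exons were lost. The labelled epithelium was matched by Epcam, between 309.8 and 565 FPKM in all 8 libraries, with each of 4 pan-leukocyte markers at 1.71 FPKM or less. The sort marker Cd24a had 322 and 316 FPKM in PPK ADT, against 514 and 510 in PP ADT (-0.68, limma adjusted p = 1.06e-06). Itga6, the gene of CD49f, had 33.9 and 34.4 FPKM in PPK ADT and 34.2 and 32.6 in PP ADT. It had 17.9 and 16.8 FPKM in PPK sham and 25.9 and 26.6 in PP sham. Against PP ADT, PPK ADT libraries were higher in 7 of 8 basal and squamous markers (32.5% of all genes tested were higher), and this list summed to between 7625 and 7720 FPKM in PPK ADT, 1017 and 1029 in PP ADT, 1498 and 1511 in PPK sham, and 1087 and 1099 in PP sham. Among them, Krt5 was at 3242 and 3243 FPKM in PPK ADT libraries and at most 96.8 in any other. In the other groups the largest part of the basal sum was Krt15. It had 698 and 705 FPKM in PP ADT, 1266 and 1279 in PPK sham, and 812 and 807 in PP sham. In PPK sham against PP sham, 4 of the 8 basal and squamous markers were lower, 2 higher and 2 not called. Over all genes 14.9% were lower and 13.7% higher there. The 8 luminal markers, 7 of them lower in PPK ADT than in PP ADT (27.1% of all genes were lower), summed to between 2260 and 2282 FPKM in PPK ADT, 6435 and 6483 in PP ADT, 5423 and 5508 in PPK sham, and 5544 and 5618 in PP sham. These lists move with the values of the PPK ADT group below, and their part in those values was not tested. In bulk RNA, fewer cells of a type and less RNA per cell cannot be told apart.

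Together the 44 genes summed to 710 and 696 FPKM in PPK ADT libraries, 2493 and 2516 in PP ADT, 3354 and 3404 in PPK sham, and 1839 and 1854 in PP sham. As a share of all FPKM this was 0.216% and 0.208% in PPK ADT, 0.878% and 0.879% in PP ADT, 1.11% and 1.12% in PPK sham, and 0.593% in both PP sham libraries. The set as a whole was thus lowest in PPK ADT and highest in PPK sham epithelium, with no overlap between any groups. The single genes mostly followed the same order. In 29 of 44 the group means ran from PPK sham through PP ADT and PP sham down to PPK ADT, in 43 the PPK ADT mean was the lowest, and in 34 the PPK sham mean was the highest. In all 8 libraries 42 of the 44 were at 1 FPKM or more, the exceptions being Ifit2 and Iigp1.

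**Figure D2:**
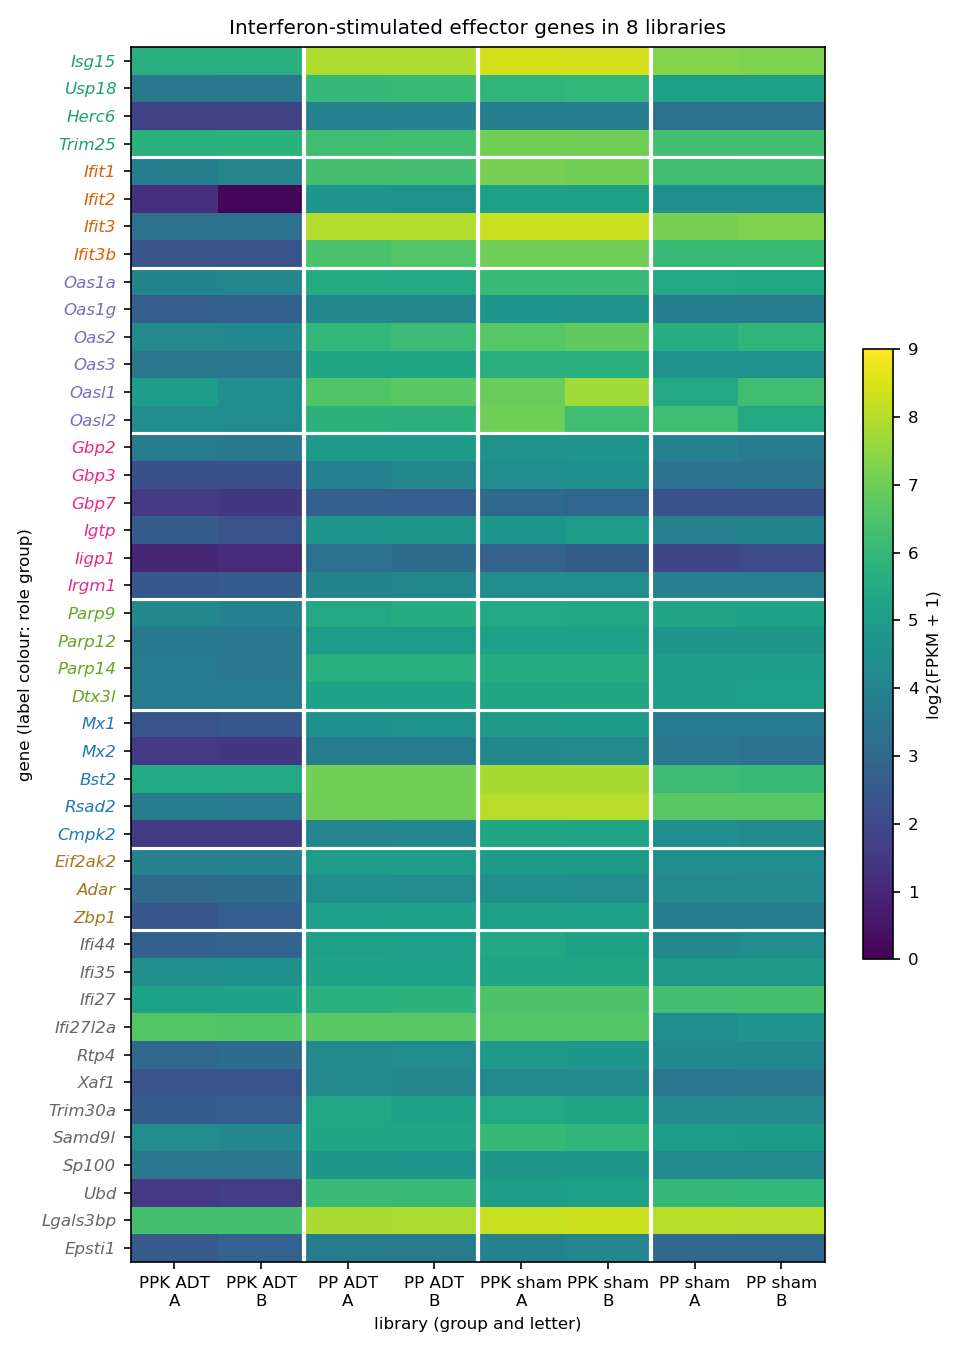
Level of each of the 44 genes, as log2(FPKM + 1) in colour, in the 8 libraries, with genes in rows by role group and libraries in columns. The PPK ADT columns are the darkest for 43 of the 44 genes, and Ifi27l2a is the exception.

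Between genotypes in sham mice, most of the set was higher in PPK epithelium. Differences were tested with limma on log2(FPKM + 1), two-sided, with Benjamini-Hochberg adjustment over the 14000 genes, and a gene is called where the adjusted p is under 0.05. By this rule 39 genes were higher in PPK sham than in PP sham, 1 was lower, and 4 were not called. Over all genes tested 28.6% were called, 13.7% higher and 14.9% lower. The median log2 fold change was 0.79 over the set and -0.02 over all genes, and 13 of the set were called and differed at least 2-fold, as did 3.68% of all genes. Of the 100 genes with the highest fold changes 3 belonged to the set, which makes up 0.314% of the genes tested. The Ifit family rose in 3 of 4 genes (median 0.92), the Oas family in 5 of 6 (0.91), the Gbp and IRG group in 6 of 6 (0.78) and the Parp group in 3 of 4 (0.32). The gene that fell was Ubd, and those not called were Ifit2, Oasl2, Parp9 and Adar.

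Between genotypes in ADT mice the direction was the opposite. In PPK ADT against PP ADT epithelium 43 genes were lower, Ifi27l2a was not called, and no gene of the set had a fold change above 0. Over all genes 59.6% were called, 32.5% higher and 27.1% lower. The median log2 fold change was -1.81 over the set and 0.05 over all genes, and 39 of the set were called and differed at least 2-fold, as did 17.8% of all genes. The Ifit family had the lowest median of the 4 families, -4.07, while the medians were -1.61 for Oas, -1.70 for Gbp and IRG and -1.44 for the Parp group. These medians rest on 4 to 6 genes each, and the families were not tested against one another. Not every Ifit gene stood apart, as Ifit1 (-2.37) was close to Igtp of the Gbp and IRG group (-2.30). Of the 100 genes with the lowest fold changes 5 belonged to the set.

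The change of direction was itself tested, as the genotype effect in ADT mice minus that in sham mice. All 44 genes were called lower in this difference, where 52.8% of all genes were called, 30% higher and 22.8% lower. A difference of at least 2-fold was called in 43 of them and in 21% of all genes. The median was -2.67 over the set and 0.09 over all genes, and 12 of the 100 lowest values in the whole table belonged to the set. In 38 genes the genotype effect was called lower in ADT and higher in sham mice, a pattern that 6.25% of all genes tested showed. With any 1 library left out, the difference was still called lower in all 44 genes.

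**Figure D3:**
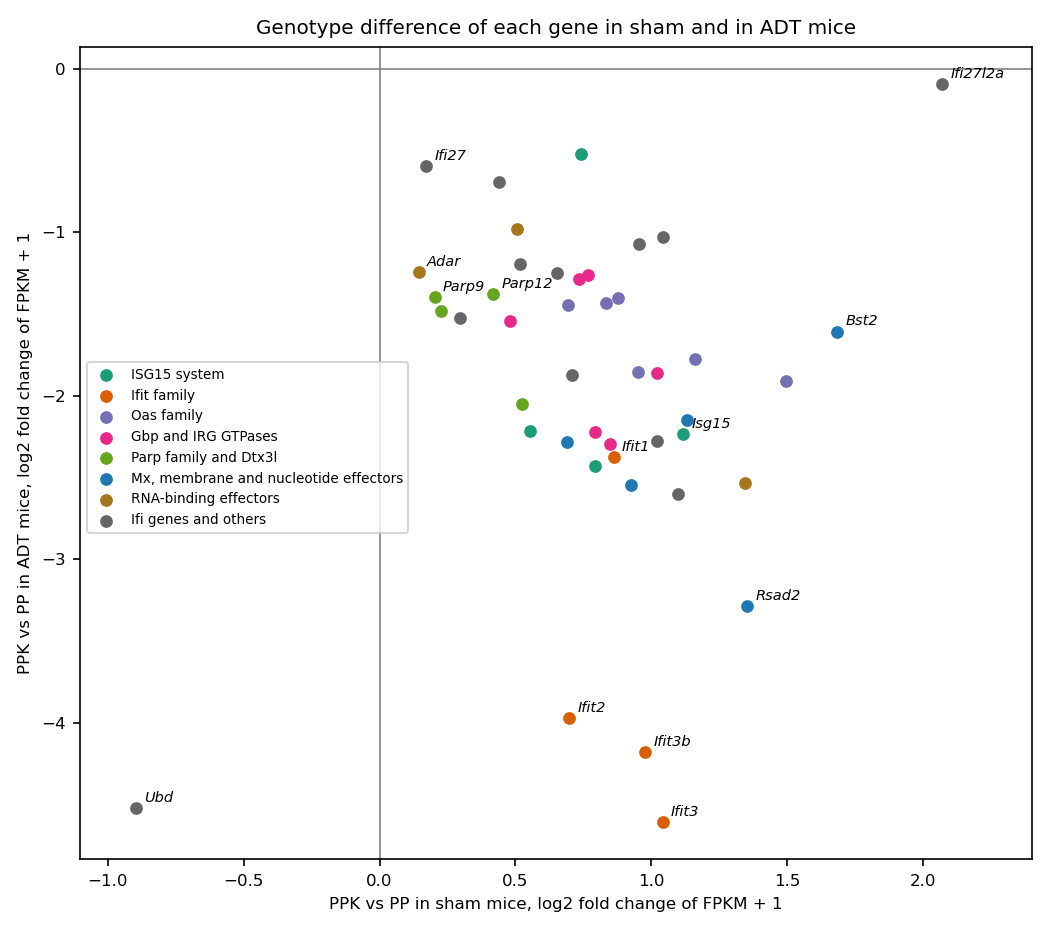
Log2 fold change of FPKM + 1 in PPK against PP epithelium in sham mice (x axis) and in ADT mice (y axis), 1 point per gene, coloured by role group. Nearly all points lie right of 0 and below 0, with Ubd left of 0 at -0.90 and Ifi27l2a close to 0 on the y axis at -0.09.

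Comparing ADT with sham mice within each genotype gave opposite directions too. In PPK mice 43 genes were lower in ADT than in sham epithelium, Ifi27l2a was not called, and no gene of the set had a fold change above 0. Over all genes 62.6% were called, 32% higher and 30.7% lower. The median log2 fold change was -2.06 over the set and 0 over all genes, and 41 of the set were called and differed at least 2-fold, as did 19.7% of all genes. In PP mice 31 genes were higher in ADT, 3 were lower (Cmpk2, Ifi27 and Lgals3bp) and 10 were not called. Over all genes 44.2% were called, 19% higher and 25.1% lower. The median was 0.48 over the set and -0.07 over all genes, and 4 of the set were called and differed at least 2-fold (Ifi27l2a, Zbp1, Iigp1 and Gbp2), as did 8.67% of all genes. These comparisons share their libraries with the genotype comparisons above.

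**Figure D4:**
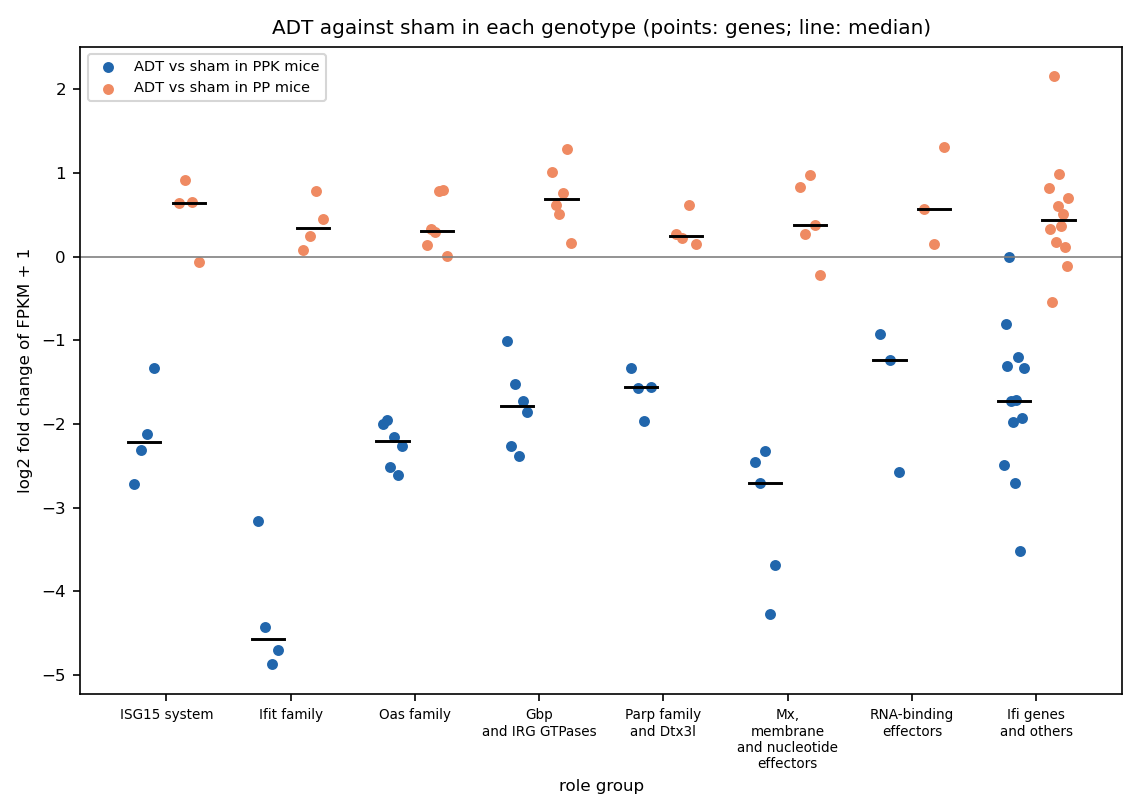
Log2 fold change of FPKM + 1 in ADT against sham epithelium for each gene, by role group, in PPK mice (blue) and PP mice (orange), with the median of each group as a line. The PPK points all lie below 0, with Ifi27l2a nearest to it at -0.01, and the Ifit family has the lowest median there (-4.56).

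The ISG15 system attaches the ubiquitin-like protein ISG15 to other proteins and removes it again. Isg15 itself, one of the most abundant transcripts of the set, had 50.2 and 51.5 FPKM in PPK ADT libraries, 243 and 244 in PP ADT, 344 and 334 in PPK sham, and 158 and 153 in PP sham. The 4 groups did not overlap, and PPK ADT was far below the rest. The log2 fold change of PPK against PP was -2.24 ± 0.029 (SE) in ADT mice and 1.12 ± 0.029 in sham mice (limma adjusted p = 3.9e-08 and 4.02e-06). Usp18, the protease that removes ISG15 and restrains the interferon receptor, had 11.2 and 11.2 FPKM in PPK ADT, 63.8 and 65.4 in PP ADT, 57.5 and 61.2 in PPK sham, and 33.7 and 34.1 in PP sham. Trim25, a ubiquitin ligase that can also act on ISG15, had 52.0 and 52.6 FPKM in PPK ADT, 75.1 and 76.0 in PP ADT, 133 and 133 in PPK sham, and 79.0 and 79.2 in PP sham. Trim25 was not called between PP ADT and PP sham mice (-0.06, adjusted p = 0.0793) and had the smallest called genotype effect of the set in ADT mice (-0.52 ± 0.025). Herc6, the main ISG15 ligase in mice, was at 2.33 and 2.44 FPKM in PPK ADT and between 9.02 and 14.8 in all other libraries. Of the enzymes upstream of it, Uba7, which activates ISG15, had 4.41 and 3.74 FPKM in PPK ADT, 13.3 and 12.2 in PP ADT, 14.9 and 15.3 in PPK sham, and 10.5 and 9.80 in PP sham.

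The Ifit proteins bind viral RNA and block its translation, and their genes lie together on chromosome 19. Ifit3 had 9.09 and 9.57 FPKM in PPK ADT libraries, 251 and 251 in PP ADT, 299 and 303 in PPK sham, and 141 and 151 in PP sham. It was 26.9 times lower in PPK ADT than in PP ADT by the ratio of mean FPKM, a log2 fold change of -4.61 ± 0.042 (limma adjusted p = 9.69e-09), and 1.04 ± 0.042 higher in PPK sham than in PP sham (adjusted p = 1.59e-05). Its near-copy Ifit3b had 4.18 and 3.99 FPKM in PPK ADT, 87.6 and 94.8 in PP ADT, 132 and 131 in PPK sham, and 66.7 and 65.99 in PP sham. Ifit3 shares 51.2% of its 50-base stretches with Ifit3b, so reads could be split between them and the separate values are uncertain. Ifit1, which recognises RNA caps that lack methylation, had 13.4 and 15.9 FPKM in PPK ADT, 80.7 and 79.3 in PP ADT, 141 and 136 in PPK sham, and 74.5 and 77.1 in PP sham. In PP mice Ifit1 did not differ between ADT and sham beyond its error (0.08 ± 0.073, adjusted p = 0.434), unlike Ifit3 (0.78 ± 0.042, adjusted p = 1.89e-05). Whether these 2 genes differ in that response was not tested. Ifit2, a partner of the other family members, had 1.397 and 0.0986 FPKM in PPK ADT, 25.0 and 23.9 in PP ADT, 33.9 and 33.9 in PPK sham, and 20.7 and 20.4 in PP sham. In PPK ADT library B held 0.0706 of the Ifit2 value of library A, and the error of the shared fit includes that spread. The sham comparison was not called (0.70 ± 0.32, adjusted p = 0.159), though the 2 groups did not overlap, and it was called without PPK ADT replicate A (adjusted p = 0.000463) or without replicate B (adjusted p = 0.000419).

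The Oas enzymes sense double-stranded RNA and make a messenger that activates RNase L, and the Oas-like protein Oasl1 lacks that enzymatic activity. Oas3 had 10.97 and 10.4 FPKM in PPK ADT libraries, 38.8 and 39.1 in PP ADT, 50.3 and 51.7 in PPK sham, and 22.2 and 22.3 in PP sham. Oas2 had 17.8 and 17.4 FPKM in PPK ADT, 61.6 and 71.3 in PP ADT, 101 and 109.8 in PPK sham, and 48.2 and 60.4 in PP sham. Both were higher in PPK sham than in PP sham (1.16 ± 0.038 and 0.95 ± 0.12, limma adjusted p = 8.01e-06 and 0.00143) and lower in PPK ADT against PP ADT (-1.77 and -1.86). Only Oas3 of this pair was called between PP ADT and PP sham (0.78 and 0.29, adjusted p = 1.32e-05 and 0.0832), a contrast between genes that was not tested, and Oas2 was called without PP sham replicate B (adjusted p = 0.0195) and with median-of-ratios scaling (0.0425). Oas1a had 15.8 and 16.2 FPKM in PPK ADT, 46.0 and 44.7 in PP ADT, 67.6 and 66.8 in PPK sham, and 42.2 and 40.1 in PP sham. Oas1g had 5.53 and 6.005 FPKM in PPK ADT, 16.9 and 16.7 in PP ADT, 25.3 and 25.0 in PPK sham, and 13.7 and 12.8 in PP sham. Oas1a and Oas1g share 57.6% and 45.3% of their 50-base stretches with each other, and their separate values are uncertain.

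The neighbouring genes Oasl1 and Oasl2, 11005 bases apart on chromosome 5, were the only members whose sham libraries spread widely. Oasl1, which in mice restrains translation of Irf7, had 32.1 and 20.1 FPKM in PPK ADT, 93.7 and 103 in PP ADT, 121 and 214 in PPK sham, and 42.6 and 74.4 in PP sham. Oasl2, which carries ubiquitin-like domains, had 20.3 and 19.3 FPKM in PPK ADT, 55.7 and 54.1 in PP ADT, 129.6 and 74.6 in PPK sham, and 72.1 and 41.6 in PP sham. In both sham groups library B exceeded library A for Oasl1, by 1.77-fold in PPK and 1.75-fold in PP, while for Oasl2 library B was at 0.575 of A in PPK and 0.578 of A in PP. The genotype effect in sham mice passed the threshold for Oasl1 (1.495 ± 0.37, limma adjusted p = 0.0254) and missed it for Oasl2 (0.83 ± 0.31, adjusted p = 0.0972). The Oasl1 call was lost without PPK sham replicate B (adjusted p = 0.117), without PP sham replicate A (0.119), with no filter (0.0738) and with only the sham groups in the fit (0.078). Oasl2 was called without PPK sham replicate B (adjusted p = 0.0407) or without PP sham replicate A (0.0439).

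**Figure D5:**
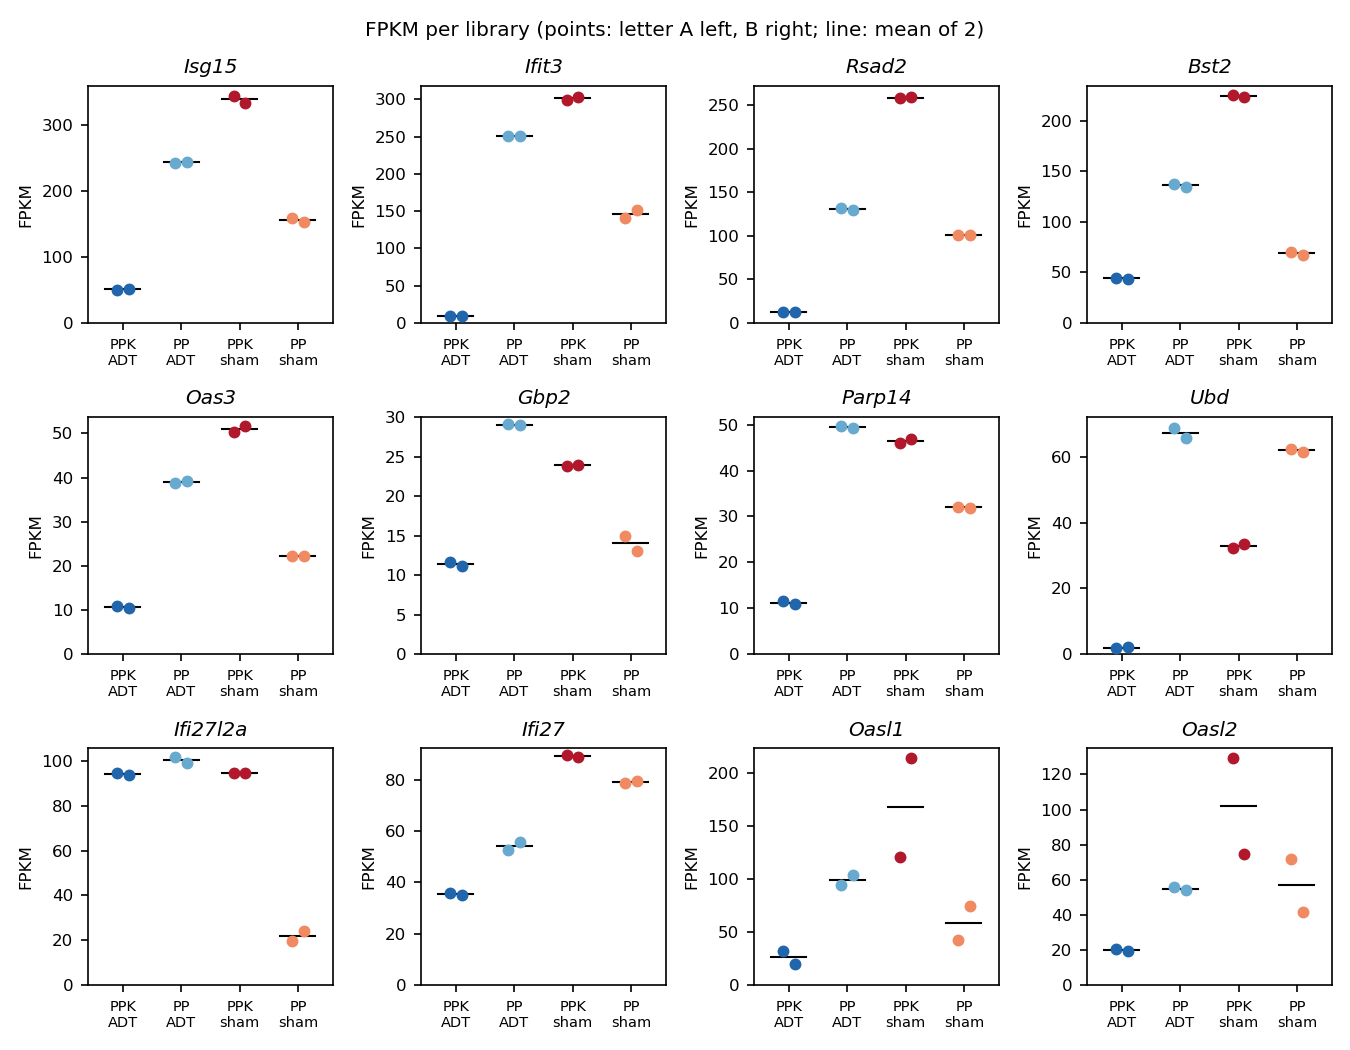
FPKM of 12 genes in each library, with the groups from left to right PPK ADT, PP ADT, PPK sham and PP sham, points for libraries A and B, and a line at their mean. Most genes are lowest in PPK ADT and highest in PPK sham, while Ubd is lower in PPK sham than in PP sham, Ifi27l2a is low in PP sham alone, and Oasl1 and Oasl2 spread between libraries A and B of the sham groups.

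The Gbp and IRG genes encode GTPases that assemble on the membranes of intracellular microbes, and in mice they respond to type II as well as type I interferon. Gbp2 had 11.6 and 11.1 FPKM in PPK ADT, 29.1 and 29.0 in PP ADT, 23.8 and 23.97 in PPK sham, and 14.9 and 13.1 in PP sham. Unlike most of the set it was highest in PP ADT epithelium, where it was 1.00 ± 0.064 above PP sham on the log2 scale (limma adjusted p = 4.13e-05). Gbp3 had 3.54 and 3.61 FPKM in PPK ADT, 14.6 and 16.7 in PP ADT, 20.1 and 21.9 in PPK sham, and 9.67 and 10.02 in PP sham. Gbp7 had 1.79 and 1.78 FPKM in PPK ADT, 5.87 and 5.49 in PP ADT, 7.44 and 6.60 in PPK sham, and 3.77 and 3.65 in PP sham. Gbp7 shares 10.5% of its 50-base stretches with the annotated gene Gm43802. All 3 lie within one cluster on chromosome 3 and were called in each genotype comparison, higher in PPK sham and lower in PPK ADT.

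Among the IRG genes, Igtp had 5.11 and 3.92 FPKM in PPK ADT, 25.8 and 26.2 in PP ADT, 25.3 and 30.0 in PPK sham, and 14.1 and 15.7 in PP sham. Iigp1 had 0.934 and 1.12 FPKM in PPK ADT, 8.77 and 8.10 in PP ADT, 6.06 and 5.32 in PPK sham, and 2.64 and 3.08 in PP sham. The Iigp1 values are low, and log2(FPKM + 1) understates its change (-2.22 ± 0.10 in PPK against PP ADT). Irgm1, which keeps other IRG proteins off host membranes, had 4.52 and 5.17 FPKM in PPK ADT, 15.7 and 16.3 in PP ADT, 20.1 and 20.1 in PPK sham, and 14.3 and 14.0 in PP sham. Irgm1 was the only gene of this group not called between PP ADT and PP sham (0.17 ± 0.063, limma adjusted p = 0.0723), and it was called in 4 of the alternative settings, among them those without PPK ADT replicate A (0.0311) or B (0.0316). Igtp shares 11.8% of its 50-base stretches with Irgm2, with which its exons overlap on the same strand.

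The Parp genes encode ADP-ribosyltransferases, and Dtx3l a ubiquitin ligase that works in a complex with Parp9. They had the smallest genotype effects of the 4 families in sham mice. Parp14 had 11.6 and 10.8 FPKM in PPK ADT, 49.7 and 49.3 in PP ADT, 46.1 and 46.9 in PPK sham, and 32.1 and 31.9 in PP sham. Its log2 fold changes were -2.05 ± 0.042 in ADT and 0.52 ± 0.042 in sham mice (limma adjusted p = 1.55e-07 and 0.000246). Parp12 had 11.04 and 11.1 FPKM in PPK ADT, 30.2 and 30.4 in PP ADT, 34.8 and 34.6 in PPK sham, and 25.6 and 25.9 in PP sham. Parp9 had 17.6 and 14.9 FPKM in PPK ADT, 42.0 and 46.9 in PP ADT, 43.4 and 41.5 in PPK sham, and 37.6 and 36.0 in PP sham. Dtx3l had 12.5 and 11.9 FPKM in PPK ADT, 36.4 and 35.3 in PP ADT, 37.7 and 37.8 in PPK sham, and 31.6 and 32.8 in PP sham. In sham mice Parp9 was not called (0.20 ± 0.086, adjusted p = 0.133) and Dtx3l was (0.22 ± 0.041, adjusted p = 0.00817). Parp9 and Dtx3l overlap on opposite strands of chromosome 16. The libraries were strand-specific according to the labels, but no source used here says whether the authors' quantification used the strand.

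The Mx, membrane and nucleotide group held some of the largest changes outside the Ifit family. Rsad2 (viperin), which makes a nucleotide that stops viral RNA synthesis, had 12.8 and 12.3 FPKM in PPK ADT, 132 and 130.0 in PP ADT, 258 and 259.8 in PPK sham, and 101 and 101 in PP sham. It was 20.6 times lower in PPK ADT than in PPK sham by the ratio of means, a log2 fold change of -4.26 ± 0.028 (limma adjusted p = 2.07e-09). Bst2 (tetherin), which holds budding virus on the cell surface, had 44.4 and 43.7 FPKM in PPK ADT, 138 and 135 in PP ADT, 225 and 223 in PPK sham, and 70.5 and 67.6 in PP sham. Its effect in sham mice was the second largest of the set (1.68 ± 0.031, adjusted p = 1.5e-06). Cmpk2, which supplies nucleotides and lies 12751 bases from Rsad2, had 2.004 and 1.98 FPKM in PPK ADT, 16.1 and 16.8 in PP ADT, 38.1 and 37.0 in PPK sham, and 20.1 and 18.5 in PP sham. Although adjacent, Rsad2 was higher and Cmpk2 lower in PP ADT than in PP sham (0.37 and -0.22, adjusted p = 9.18e-05 and 0.0192). The Cmpk2 call was lost in 3 of the alternative settings, besides the 2-fold limit. Mx1 and Mx2, GTPases that trap viral nucleocapsids, ranged from 1.73 to 4.59 FPKM in PPK ADT, 12.3 to 23.1 in PP ADT, 16.8 to 28.8 in PPK sham, and 9.87 to 12.6 in PP sham. Mx2 is annotated as a polymorphic pseudogene in the reference used for positions.

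The RNA-binding group covered a wide range of effects. Eif2ak2 (PKR), which halts translation on sensing double-stranded RNA, had 14.9 and 14.7 FPKM in PPK ADT, 30.2 and 30.1 in PP ADT, 29.0 and 28.8 in PPK sham, and 20.5 and 19.7 in PP sham. Zbp1, a sensor of Z-form nucleic acids, had 4.46 and 5.43 FPKM in PPK ADT, 32.5 and 34.1 in PP ADT, 34.0 and 34.3 in PPK sham, and 12.7 and 12.9 in PP sham. For Zbp1 the PP ADT and PPK sham libraries overlapped, and its ADT effect in PP mice was 1.31 ± 0.078 (limma adjusted p = 3.09e-05). Adar, which edits adenosine in double-stranded RNA and has a promoter that responds to interferon beside a constitutive one, had 7.58 and 8.08 FPKM in PPK ADT, 20.4 and 19.4 in PP ADT, 20.3 and 19.4 in PPK sham, and 17.97 and 17.8 in PP sham. It was called in neither the genotype comparison in sham mice (0.14 ± 0.052, adjusted p = 0.0884) nor the ADT comparison in PP mice (0.14 ± 0.052, adjusted p = 0.0632), though it was called in the second with median-of-ratios scaling (adjusted p = 0.0179).

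Most members that went against the majority, Cmpk2 apart, were among the Ifi genes and others. Ubd, which encodes the ubiquitin-like modifier FAT10, had 1.79 and 2.15 FPKM in PPK ADT, 68.9 and 65.7 in PP ADT, 32.2 and 33.6 in PPK sham, and 62.6 and 61.7 in PP sham. It was the only gene called lower in PPK sham than in PP sham (-0.90 ± 0.064, limma adjusted p = 0.000157), and it fell in PPK ADT against PP ADT by 4.52 ± 0.064, close to Ifit3 in size. Ifi27l2a had 94.7 and 93.7 FPKM in PPK ADT, 102 and 99.1 in PP ADT, 94.9 and 94.7 in PPK sham, and 19.9 and 23.96 in PP sham. It was the only gene lowest in PP sham, with the libraries of the 3 other groups between 93.7 and 102 FPKM. Its sham effect was the largest of the set (2.07 ± 0.077, adjusted p = 1.16e-05), and neither its genotype effect in ADT mice (-0.09 ± 0.077, adjusted p = 0.345) nor its ADT effect in PPK mice (-0.01 ± 0.077, adjusted p = 0.923) was called. The genotype effect in ADT mice was called without PP sham replicate A (adjusted p = 0.0419) or B (0.0424) and under quantile normalization (-0.30, adjusted p = 0.0174). Ifi27, whose gene lies 1927 bases from Ifi27l2a, had 35.9 and 35.2 FPKM in PPK ADT, 52.8 and 55.6 in PP ADT, 89.7 and 88.9 in PPK sham, and 78.7 and 79.5 in PP sham. Both ADT groups were below both sham groups for Ifi27, and its ADT effect in PP mice was -0.54 ± 0.034 (adjusted p = 4.25e-05), opposite to the 2.15 ± 0.077 of Ifi27l2a (adjusted p = 3.18e-06).

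Lgals3bp, a secreted glycoprotein and the most abundant member of this group, had 80.4 and 80.8 FPKM in PPK ADT, 231 and 236 in PP ADT, 301 and 321 in PPK sham, and 254 and 252 in PP sham. It was called lower in PP ADT than in PP sham by a small margin (-0.12 ± 0.035, limma adjusted p = 0.0337), and under quantile normalization its sign turned (0.06, adjusted p = 0.101). The other 8 genes of the group (Ifi44, Ifi35, Rtp4, Xaf1, Trim30a, Samd9l, Sp100 and Epsti1) were all called, lower in PPK ADT against PP ADT and higher in PPK sham against PP sham. They ranged from 3.89 to 21.8 FPKM in PPK ADT, 12.2 to 39.7 in PP ADT, 14.5 to 65.1 in PPK sham, and 7.23 to 30.4 in PP sham. Trim30a, a negative regulator of Toll-like receptor signals in mice, had the lowest difference of genotype effects of this group (-3.70 ± 0.087, adjusted p = 5.05e-07).

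Upstream of these genes, few interferons were measurable. Of 20 listed interferon ligand genes 4 passed the filter, Ifng was listed at 0 in all 8 libraries, and no Ifna gene exceeded 0.142 FPKM. Ifnb1, the type I interferon of epithelial cells and fibroblasts, had 0.282 and 0.0695 FPKM in PPK ADT, 1.88 and 2.77 in PP ADT, 2.90 and 3.65 in PPK sham, and 3.43 and 2.17 in PP sham. Ifnl3, a type III interferon, had 0 and 0.208 FPKM in PPK ADT, 1.76 and 1.25 in PP ADT, 4.41 and 4.67 in PPK sham, and 2.66 and 2.58 in PP sham. Both were lower in PPK ADT against PP ADT (-1.49 ± 0.21 and -1.18 ± 0.13, limma adjusted p = 0.00103 and 0.000341), while in sham mice Ifnl3 was called higher in PPK (0.61 ± 0.13, adjusted p = 0.0161) and Ifnb1 was not called (0.19 ± 0.21, adjusted p = 0.571). Ifne, an interferon of reproductive epithelium, was called in neither genotype comparison and was higher in ADT than in sham mice, at 11.1 and 9.79 FPKM in PPK ADT, 7.90 and 8.68 in PP ADT, 3.13 and 4.94 in PPK sham, and 3.604 and 2.37 in PP sham.

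Of the 6 receptor genes, 4 were lower in PPK ADT than in PP ADT with 2 not called, beside 27.1% of all genes lower. In PPK sham against PP sham 3 were higher with 3 not called, beside 13.7% of all genes higher. Called in either direction were 66.7% of the receptor genes in ADT mice, near the 59.6% of all genes, and 50% in sham mice, against 28.6%. Of 18 transducers and regulators tested, 13 were lower and 3 higher in the ADT comparison, and 6 higher and 2 lower in the sham comparison (88.9% and 44.4% called). Irf7, a factor that amplifies type I interferon, had 12.2 and 11.4 FPKM in PPK ADT, 68.2 and 69.7 in PP ADT, 85.6 and 98.4 in PPK sham, and 47.5 and 48.5 in PP sham. Irf7 was highest in PPK sham and lowest in PPK ADT, with no overlap between the groups. Among 34 other interferon-induced genes outside the set, 33 were lower in PPK ADT against PP ADT (27.1% of all genes were), and 29 were higher in PPK sham against PP sham (13.7% of all genes were). Within each of these 2 genotype comparisons all 34 fold changes had the same sign. Of the 34, 23 were higher and 3 lower in PP ADT against PP sham, where 19% of all genes were higher and 25.1% lower. That list was also drawn up with results of these libraries known.

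Markers of other cells were set beside these values. T and NK cell markers Cd3d, Cd3e, Cd3g, Klrb1c and Ncr1 were at 0.065 FPKM or less in every library, and of the 10 markers of that list Trbc2 alone passed the filter. The list summed to between 8.02 and 8.16 FPKM in PPK ADT, 9.97 and 11.7 in PP ADT, 0.121 and 0.285 in PPK sham, and 0.643 and 1.86 in PP sham. In the ADT libraries this sum was almost wholly Trbc2, at 8.05 and 7.98 FPKM in PPK ADT and 9.74 and 11.6 in PP ADT. Trbc2 was at 0 in PPK sham and at 0.534 and 1.86 in PP sham. Siglech, a marker of plasmacytoid dendritic cells, was at 0 in all 8. Of the 11 macrophage and monocyte markers 8 passed the filter. Their list summed to between 53.4 and 54.2 FPKM in PPK ADT, 135 and 146 in PP ADT, 135 and 135 in PPK sham, and 65.5 and 66.5 in PP sham. In PPK ADT against PP ADT 5 of the 8 tested were lower and 1 higher, and in PPK sham against PP sham 6 were higher and 1 lower, beside 27.1% of all genes lower and 32.5% higher in ADT mice and 13.7% higher and 14.9% lower in sham mice. Cd14, which epithelial cells can also express, was the largest part of the sum in the PP ADT, PPK sham and PP sham libraries, with 16.4 and 13.6 FPKM in PPK ADT, 96.2 and 101 in PP ADT, 89.4 and 91.5 in PPK sham, and 41.3 and 41.7 in PP sham. Cd68, a lysosomal protein, was the largest part in PPK ADT, with 18.7 and 18.9 FPKM there, 17.4 and 19.6 in PP ADT, 21.4 and 20.8 in PPK sham, and 11.8 and 10.9 in PP sham. Lyz2, a lysozyme, was highest in PPK ADT, at 12.3 and 11.3 FPKM, against 7.26 and 7.86 in PP ADT, 8.33 and 6.85 in PPK sham, and 2.01 and 1.45 in PP sham. The complement genes C1qa and C1qb reached 3.33 FPKM in PPK ADT, 5.02 in PP ADT, 4.41 in PPK sham and 1.34 in PP sham, and Adgre1 and Csf1r stayed at 0.605 FPKM or less in all libraries. The 4 pan-leukocyte markers summed to between 2.60 and 3.58 FPKM in PPK ADT, 2.20 and 2.80 in PP ADT, 1.81 and 2.38 in PPK sham, and 0.388 and 0.625 in PP sham. Of these, Laptm5 and Cd53 passed the filter, and Laptm5 was higher in PPK in ADT mice (0.33 ± 0.11, limma adjusted p = 0.0385) and in sham mice (0.59 ± 0.11, adjusted p = 0.00861). Fibroblast markers also differed between the groups: of 5 tested, 5 were higher in PPK ADT against PP ADT and 4 in PPK sham against PP sham. Their list summed to between 28.8 and 30.0 FPKM in PPK ADT, 4.54 and 4.61 in PP ADT, 17.0 and 17.7 in PPK sham, and 5.55 and 5.85 in PP sham. The neutrophil list summed to between 12.6 and 12.8 FPKM in PPK ADT and 4.80 and 4.86 in PP ADT. In sham mice it summed to between 4.92 and 6.37 in PPK and 0.484 and 0.508 in PP. S100a8 and S100a9 alone were tested, and both were higher in PPK in each comparison. S100a9 was the largest part in PPK ADT, at 9.45 and 9.31 FPKM. There Csf3r was at 0.217 and 0.149 FPKM, against 0.493 and 0.843 in PP ADT. Cxcr2 was at 0.958 and 1.03 FPKM in PPK ADT, against 0.0638 and 0.0581 in PP ADT. Ly6g and Mpo were at 0 in both PPK ADT libraries. These lists differ between the same groups as the interferon-stimulated genes, and their part in those values was not tested.

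The promoter classes overlapped widely in their effects. In PPK against PP ADT epithelium the median log2 fold change was -1.82 over the 16 genes with an ISRE-type match, with a range of -4.61 to -0.98, and -1.48 over the 17 without one, with a range of -4.52 to -0.52. In sham mice the medians were 0.93 and 0.70. For the difference of the genotype effects they were -3.04 (range -5.65 to -1.48) and -2.07 (range -4.67 to -1.13). For ADT against sham they were 0.59 and 0.24 in PP mice, and -2.29 and -1.93 in PPK mice. The genes with a match thus had the larger median in each comparison, but the classes were not tested against one another. The 11 genes with no promoter entry had medians of -2.05 in ADT and 0.79 in sham mice. Oasl1, Oasl2 and Parp12, whose windows printed above hold no match, were lower in PPK ADT than in PP ADT as were Isg15, Ifit3, Ifit1, Gbp3 and Oas1a.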

How the data were processed

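RNA from sorted prostate epithelium was sequenced as 8 strand-specific libraries, per the labels' protocols. The values used are FPKM per gene, as the authors deposited them, 1 table per library. Build mm10 and the read check FastQC (version 0.11.2) come from the submitters' processing notes. No source used here gives the aligner, the quantifier or the annotation. The low FPKM values are not whole multiples of a fixed step, so reads could not be recovered, and depth and counting error are unknown. Of 55335 identifiers 55154 were paired with a symbol from a table of gene names. Positions are from GENCODE M21 and promoters from RefSeq, both GRCm38.

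Genes at 1 FPKM or more in at least 2 of the 8 libraries (14000) were tested on log2(FPKM + 1) with limma 3.58.1 in R 4.3.3, with 4 group means sharing 1 estimate of the spread, a mean-variance trend and Benjamini-Hochberg adjustment over all genes tested. A fold change on this scale understates the change of low genes. A gene is called where the adjusted p is under 0.05. The fit was tested on simulated data. An exact permutation test of 2 libraries against 2 cannot go below 0.333 two-sided, so none was run. Motifs and shared 50-base stretches were computed in Python 3.11.15.

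The 44 genes, their role groups and the other lists were chosen with earlier results of these data known. Values of every library are printed for the Ifit, Oas, Gbp, IRG and Parp genes, for the 2 most abundant genes of each other role group, and for genes called against the majority, and those of other lists by smallest adjusted p. Some genes of those lists are not reported here. Usp18, Herc6, Mx1, Mx2, Adar and Trim30a and the promoter of Oas1a were added after their values or letters were seen. Alternatives were another pseudocount, filter, scaling and fit, the replicate letter as a block, a 2-fold limit, and leaving out each library.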

Additional observations from a re-analysis of the deposited data

Results flagged for a closer look

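The genotype effect (PPK against PP) differed between ADT and sham mice for all 44 genes by limma's test of the difference itself, and in each the effect was lower in ADT mice. In 38 genes the effect was called in opposite directions, higher in PPK sham and lower in PPK ADT. All values below are the log2 effect in ADT mice minus that in sham mice, and the effects share no library. In the Ifit family the difference was -5.65 for Ifit3, -5.16 for Ifit3b, -4.67 for Ifit2 and -3.23 for Ifit1. In the ISG15 system it was -3.35 for Isg15, -3.22 for Usp18, -2.77 for Herc6 and -1.26 for Trim25. The Oas family had -3.41 for Oasl1, -2.93 for Oas3, -2.81 for Oas2, -2.28 for Oas1g, -2.26 for Oasl2 and -2.14 for Oas1a. The Gbp and IRG genes had -3.14 for Igtp, -3.01 for Iigp1, -2.88 for Gbp3, -2.03 for Gbp7, -2.02 for Gbp2 and -2.02 for Irgm1. The Parp group had -2.57 for Parp14, -1.79 for Parp12, -1.71 for Dtx3l and -1.60 for Parp9. Among membrane and nucleotide effectors it was -4.64 for Rsad2, -3.47 for Cmpk2, -3.29 for Bst2, -3.28 for Mx1 and -2.97 for Mx2. Among RNA-binding effectors it was -3.88 for Zbp1, -1.48 for Eif2ak2 and -1.39 for Adar. The remaining genes had -3.70 for Trim30a, -3.63 for Ubd, -3.30 for Ifi44, -2.58 for Xaf1, -2.16 for Ifi27l2a, -2.07 for Samd9l, -2.02 for Epsti1, -1.90 for Rtp4, -1.82 for Lgals3bp, -1.71 for Sp100, -1.13 for Ifi35 and -0.77 for Ifi27.

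The same test was past the threshold for some genes of the wider pathway. Among ligands the difference was -1.80 for Ifnl3, -1.68 for Ifnb1 and -1.19 for Ifnl2, and among receptors -1.87 for Ifngr1, -1.22 for Ifnlr1, -1.04 for Il10rb and -0.64 for Ifngr2. Among regulators it was -3.37 for Irf7, -2.18 for Stat2 and -1.77 for Nlrc5. Of 18 transducers and regulators tested, 9 were called lower in the difference, 1 higher and 8 not at all. That is 55.6% called, near the 52.8% of all genes. Of the 6 receptor genes 4 were lower and 2 not called, and of the 4 ligands tested 3 were lower and 1 not called. The ISG15 partners had -2.20 for Ube2l6 and -1.97 for Uba7. Of the other interferon-induced genes those with the smallest adjusted p had -3.30 for Ddx60, -3.03 for Lgals9, -2.93 for Phf11d and -1.90 for Psmb8.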

How the results depend on the processing

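With 2 libraries per group and no read counts, small fold changes are the least certain, and the calls between PP ADT and PP sham depended most on the processing. Asking for a 2-fold change as well left 13 genes higher and 0 lower in PPK sham, and 4 higher and 0 lower in PP ADT against PP sham, while the calls over all genes fell to 515 and 2498 for the genotype in sham and ADT mice, 1214 and 2761 for ADT in PP and PPK mice, and 2944 for the difference. With a mean of at least 5 FPKM fewer genes were tested and the calls over all genes were 4918 for the genotype in ADT mice, 3933 and 5056 for ADT in PP and PPK mice, and 4476 for the difference. With median-of-ratios scaling 1 gene of the set was lower in PP ADT than in PP sham, and leaving out 1 library at a time gave 1 to 3. Lgals3bp turned to 0.0595 in that comparison under quantile normalization, and the cause was not tested. There the calls of Parp9, Oas1a, Dtx3l, Mx2 and Cmpk2 were lost in 3 to 8 settings each and that of Lgals3bp in 9 besides, while calls were gained by Irgm1 in 4 settings, by Oas2, Rtp4 and Ifit2 in 3 each and by Adar in 1, and median-of-ratios scaling gave 35 higher. In the sham comparison the call of Ifi27 was lost in 3 settings and that of Dtx3l in 1, and Parp9 gained one in 1. These counts of settings for single genes leave out the 2-fold limit. Whether the letters A and B pair the samples is not given by the labels. Same-lettered libraries had correlations of their deviations between -0.008 and 0.057 over 6 pairs of groups. Values this low do not settle the pairing, since single genes such as Oasl1 and Oasl2 differed alike between the letters in both sham groups. With the letter as a replicate block 40 genes were higher and 1 lower in PPK sham, 43 were lower in PPK ADT than in PP ADT, 31 were higher and 3 lower in PP ADT than in PP sham, 43 were lower in PPK ADT than in PPK sham, and 44 were lower in the difference. The block added the calls of Oasl2 in sham mice (adjusted p = 0.0447) and Oas2 in PP mice (0.0373). In PP mice it lost that of Parp9 (0.0599). The median over the set stayed between 0.74 and 0.86 in the sham comparison and between -1.88 and -1.68 in the ADT comparison under every setting. The difference could not be computed from only the groups compared.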

Other observations

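Ube2l6, the ISG15-conjugating enzyme outside the set, differed between libraries A and B as Oasl1 did. It had 4.85 and 4.77 FPKM in PPK ADT libraries A and B, 7.52 and 18.3 in PP ADT, 11.6 and 21.1 in PPK sham, and 4.39 and 10.9 in PP sham. Library B was above library A in 3 of the 4 groups. Of 4361 genes with a mean of at least 10 FPKM, 20 differed by over 0.5 on the log2 scale between B and A in the same direction in both sham groups, and 13 in opposite directions. Oasl1 and Oasl2 were the 2 genes of the set among those 20.

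The second ligand of the type III family, Ifnl2, had 0.0757 and 0.261 FPKM in PPK ADT, 0.357 and 0.876 in PP ADT, 2.78 and 2.80 in PPK sham, and 1.21 and 1.33 in PP sham. In PPK mice it was lower in ADT than in sham epithelium (-1.70 ± 0.17, limma adjusted p = 0.000147), as was Ifnl3 (-2.33 ± 0.13, adjusted p = 1.14e-05), while Ifne was higher (1.20 ± 0.21, adjusted p = 0.00238).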
